A study of Mus musculus with 2 samples.

Results

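Matrix metalloproteinases are secreted or membrane-bound zinc proteases that cleave collagens, elastin and other matrix proteins, and tissue inhibitors of metalloproteinases (TIMPs) bind and block them. The transcripts of 6 metalloproteinases (Mmp8, Mmp9, Mmp12, Mmp13, Mmp14 and Mmp19) and 3 inhibitors (Timp1, Timp2 and Timp3) were followed across the cells of kidneys with nephrotoxic serum nephritis (NTN). They were chosen by name and are 9 of the 20299 genes listed. Several of these proteases are stored or made by myeloid cells, whereas TIMPs are made by many cell types, and in the kidney the balance between both groups is known for its part in the turnover of the glomerular basement membrane and the interstitial matrix.

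Kidney cells were profiled by droplet scRNA sequencing, with 1 library for WT and 1 for Vsir-/- mice, which lack the inhibitory receptor VISTA. All mice were C57BL/6, aged 8 weeks, and were immunized against sheep IgG (200 μg, in complete Freund's adjuvant, by the intraperitoneal route) before an intravenous dose of sheep nephrotoxic serum 4 days later. The labels give 2 μL of serum per g, whereas the study's methods give another dose. Kidneys were dissociated with liberase (0.2 mg/mL, 30 minutes, 37°C). The labels describe the WT cells as sorted for CD45 and the Vsir-/- cells as unsorted, although the study's methods state a CD45 sort. The number of mice per library is not given in the sources used here. With 1 library per genotype, no difference between them has a replicate check, no p-value is given, and all intervals are 95% intervals of counting error only.

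The WT library held 5470 cells and 32799550 unique molecular identifiers (UMIs, counts of captured transcripts), and the Vsir-/- library 1844 cells and 18601189 UMIs, and 5 barcodes occurred in both. Vsir had 4278 UMIs in WT cells and 8 in Vsir-/- cells. A UMI of Ptprc, the gene of CD45, was found in 94.2% of cells in WT and 73.6% in Vsir-/-, and 8 markers of kidney tubules summed to 18 and 52237 UMIs. The study's methods state that all mice were male, but the Vsir-/- library held 16405 UMIs of Xist and 0 of the Y-linked gene Ddx3y, against 0 and 1779 in WT, so genotype and sex cannot be told apart, also for the X-linked gene Timp1. No gene was listed in exactly 1 WT cell, against 708 genes in Vsir-/- cells, and 2017 genes were listed at 0 in every WT cell while having at least 20 UMIs in Vsir-/- cells. Timp1 and Timp3 were among the genes listed at 0 in every WT cell, and since a filter per library can set a sparse gene to 0, no fold is given for them. The other 7 members had 91 (Mmp14) to 3433 (Mmp9) UMIs in WT and 18 (Mmp19) to 2272 (Timp2) in Vsir-/-.

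Several members separated by cell type (the map of CPM by cluster). Levels are given as UMIs scaled to 1000000 UMIs of the same cells (CPM), in the 16 clusters that the authors named. In the WT library, Mmp8 and Mmp9 were highest in neutrophils, Mmp12, Mmp13 and Mmp14 in R1 macrophages, the kidney-resident macrophages marked by C1q genes, and Mmp19 in M2-like R2 macrophages, a monocyte-derived population. For Mmp14 this rested on 13 UMIs, and its counting interval in R1 macrophages overlapped that in Other R2 macrophages. Timp2 was spread over neutrophils, R1 macrophages, NK cells and T cells, with 2.30 CPM in B cells, where the metalloproteinases ranged from 0 to 3.16 CPM. In the Vsir-/- library, Timp3 was found in all clusters of at least 20 cells. Among these clusters, Mmp14 was highest in Other R2 macrophages, the monocyte-like cells with Ace and Treml4 transcripts. The Mmp14 interval there overlapped that in M2-like R2 macrophages.

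**Figure D1:**
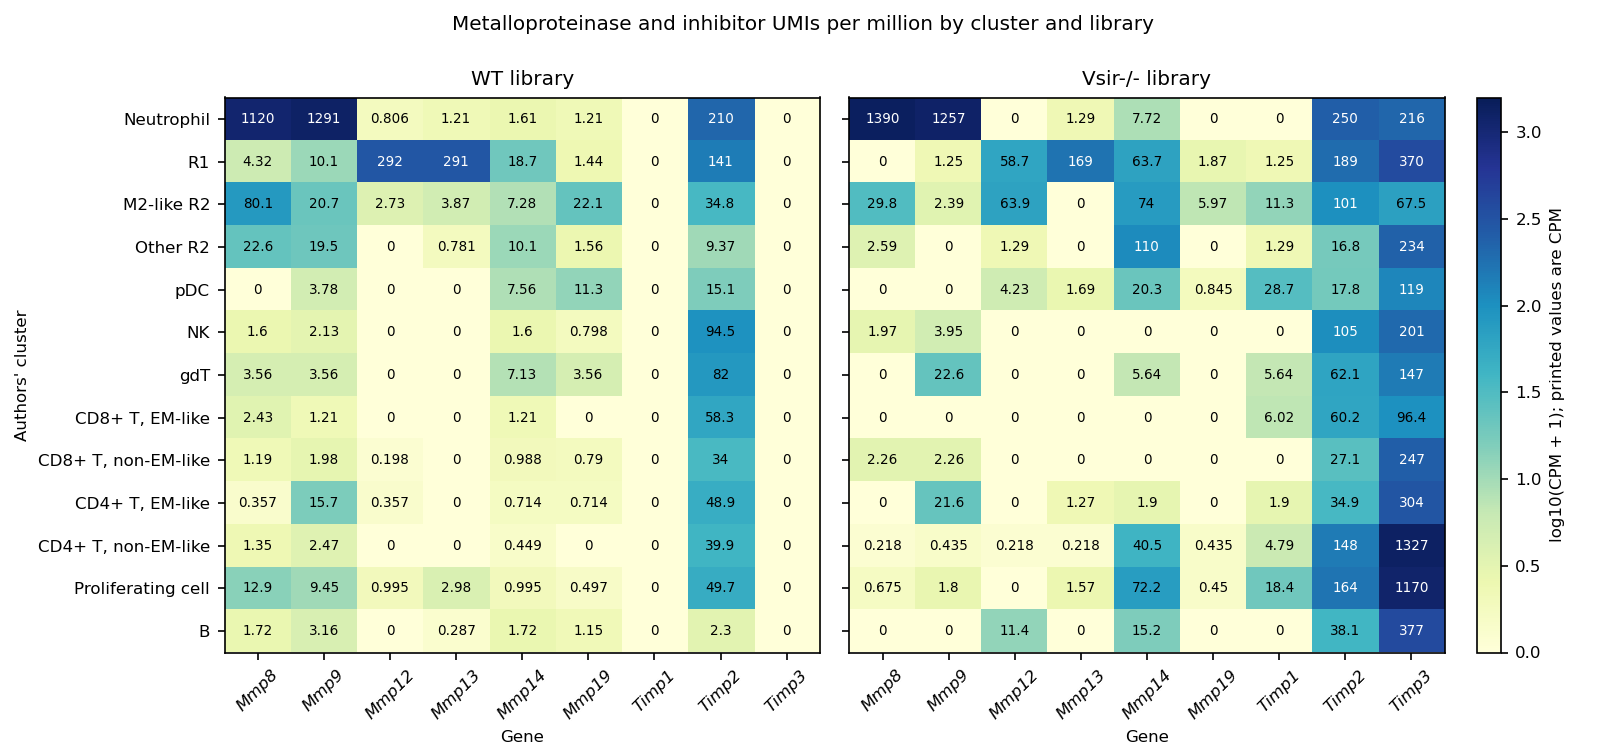
Levels in CPM (printed in each field; colour, log10 of CPM + 1) of the 9 genes in the 13 clusters with at least 20 cells in each library, WT left and Vsir-/- right. Mmp8 and Mmp9 stand above 1000 CPM in neutrophils of both libraries, and Timp1 and Timp3 are listed at 0 in every WT cluster.

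Neutrophils carried the collagenase Mmp8 and the gelatinase Mmp9, which are stored in their granules. Mmp8 reached 1120 CPM in WT neutrophils (2778 UMIs in 524 cells) and 1390 CPM in Vsir-/- neutrophils (1080 UMIs in 158 cells), a log2 ratio of Vsir-/- over WT of 0.31 (0.21 to 0.41). Mmp9 stood at 1291 CPM (3202 UMIs) and 1257 CPM (977 UMIs), a log2 ratio of −0.04 (−0.14 to 0.07). Thus the Mmp8 level was 1.24-fold higher in Vsir-/- neutrophils beyond counting error, while that of Mmp9 was not separated between the libraries. The neutrophil markers S100a8, S100a9, Csf3r, Cxcr2 and Retnlg summed to 258171 and 283737 CPM in these clusters.

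The cluster held 86.3% (85.04 to 87.4%) of all Mmp8 UMIs in WT and 94.9% (93.5 to 96.1%) in Vsir-/-, and 93.3% (92.4 to 94.1%) and 94.5% (92.9 to 95.8%) of all Mmp9 UMIs. Mmp9 was the more evenly spread of the pair: a UMI was found in 92.9% of WT and 93.7% of Vsir-/- neutrophils, against 63.2% and 68.4% for Mmp8, and the 40 WT cells with the most Mmp8 UMIs held 50% of them, against 87 cells for Mmp9. In B cells, which served as the background for free RNA, Mmp8 UMIs occurred in 0.619% and 0% of cells, and Mmp9 UMIs in 1.14% and 0%. After each cell was thinned to 1000 UMIs, the neutrophil shares were 42.7% and 51.6% for Mmp8 and 67.2% and 66.0% for Mmp9. Of 524 WT and 158 Vsir-/- neutrophils, 320 and 106 had both transcripts, and Mmp8 without Mmp9 in 11 and 2. Mmp9 UMIs occurred in 96.7% of WT neutrophils with Mmp8 and 86.5% of those without, but the former were deeper (medians of 4304 and 2688 UMIs), and at 1000 UMIs per cell the shares were 76.3% and 60.4% in WT and 65.8% and 66.2% in Vsir-/-.

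The clusters that hold each member's UMIs differed between the libraries most for Mmp12, Mmp14 and Timp2 (the plot of shares by cluster).

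**Figure D2:**
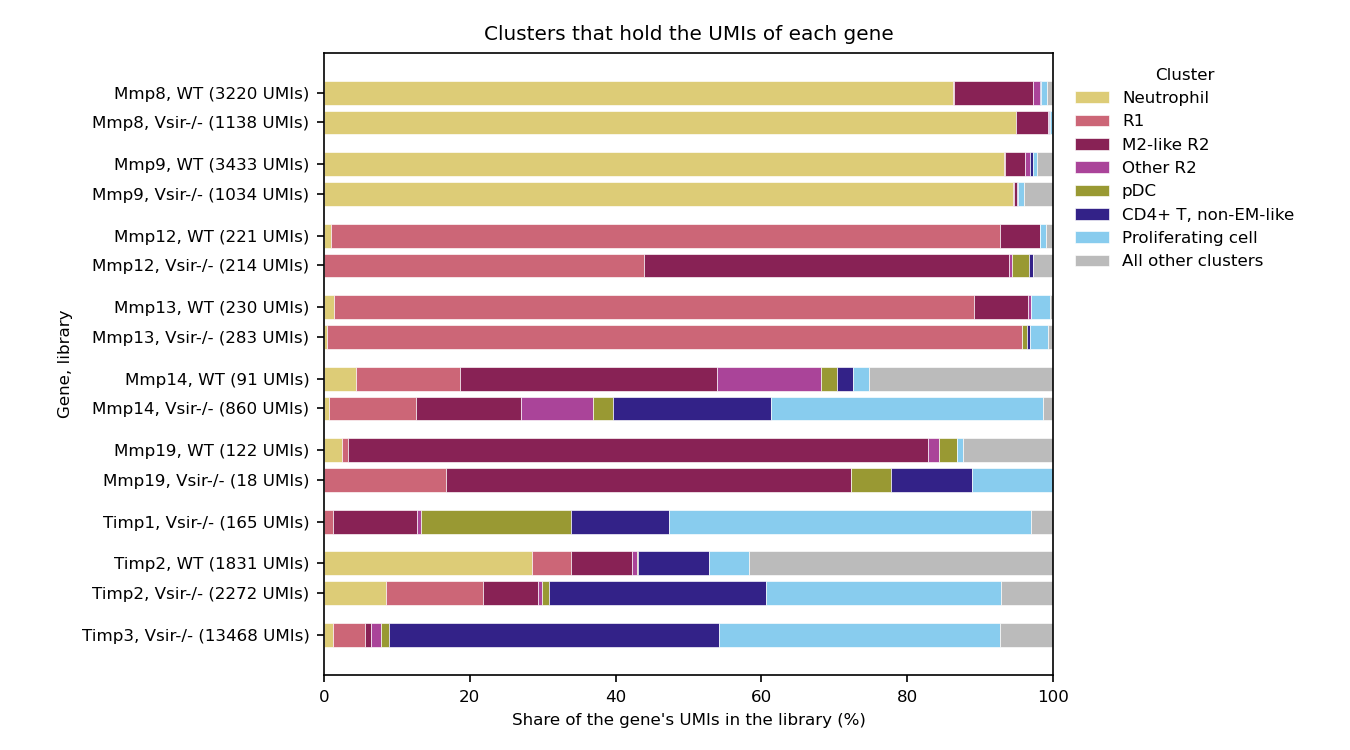
Share of each gene's UMIs in a library (x axis, %) by the cluster that holds them, with the total UMIs beside each bar, for the genes with UMIs in that library. R1 macrophages held 91.9% of Mmp12 UMIs in WT and 43.9% in Vsir-/-, and shares move with the sizes of the clusters.

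R1 macrophages carried the macrophage elastase Mmp12 and the collagenase Mmp13, and both were lower in the Vsir-/- library. Mmp12 stood at 292 CPM in WT R1 macrophages (203 UMIs in 116 cells) and 58.7 CPM in Vsir-/- (94 UMIs in 237 cells), a log2 ratio of −2.31 (−2.68 to −1.96) or 4.98-fold lower. Mmp13 stood at 291 CPM (202 UMIs) and 169 CPM (270 UMIs), a log2 ratio of −0.79 (−1.05 to −0.52) or 1.72-fold lower. Both differences exceeded counting error, and Mmp12 differed by more. The R1 markers C1qa, C1qb, C1qc, Cd81, Cd72 and Apoe summed to 18364 CPM in WT and 26585 CPM in Vsir-/- cells of this cluster, so these markers moved the other way. Of transcripts of other cells, neutrophil markers stood at 1734 and 131 CPM, B cell markers at 1131 and 56.2 CPM, and tubule markers at 7.20 and 1105 CPM in these R1 clusters, and their part in the result was not tested.

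The lower level went with fewer positive cells. Mmp12 UMIs occurred in 29.3% (21.2 to 38.5%) of WT and 8.86% (5.57 to 13.2%) of Vsir-/- R1 macrophages, and Mmp13 UMIs in 45.7% (36.4 to 55.2%) and 28.7% (23.0 to 34.9%). At 1000 UMIs per cell the shares were 16.5% and 3.30% for Mmp12 and 22.02% and 10.4% for Mmp13, while B cells had Mmp12 in 0% and 1.14% and Mmp13 in 0.103% and 0% of cells before thinning. Mmp12 was concentrated: 5 WT cells and 3 Vsir-/- cells held 50% of its UMIs in R1 macrophages, and the cell with the most held 36 and 32. Without that cell in each library the log2 ratio was −2.64. Mmp13 lay in more cells, with 11 WT and 14 Vsir-/- cells holding 50% of its UMIs. Both transcripts shared 16 of 116 WT and 9 of 237 Vsir-/- R1 macrophages. In WT, 47.1% of cells with Mmp12 and 45.1% of those without had Mmp13, and in Vsir-/- 42.9% and 27.3%, while at 1000 UMIs per cell these shares were 27.8% and 20.9% in WT and 28.6% and 9.76% in Vsir-/-, on 5 and 2 cells with both.

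**Figure D3:**
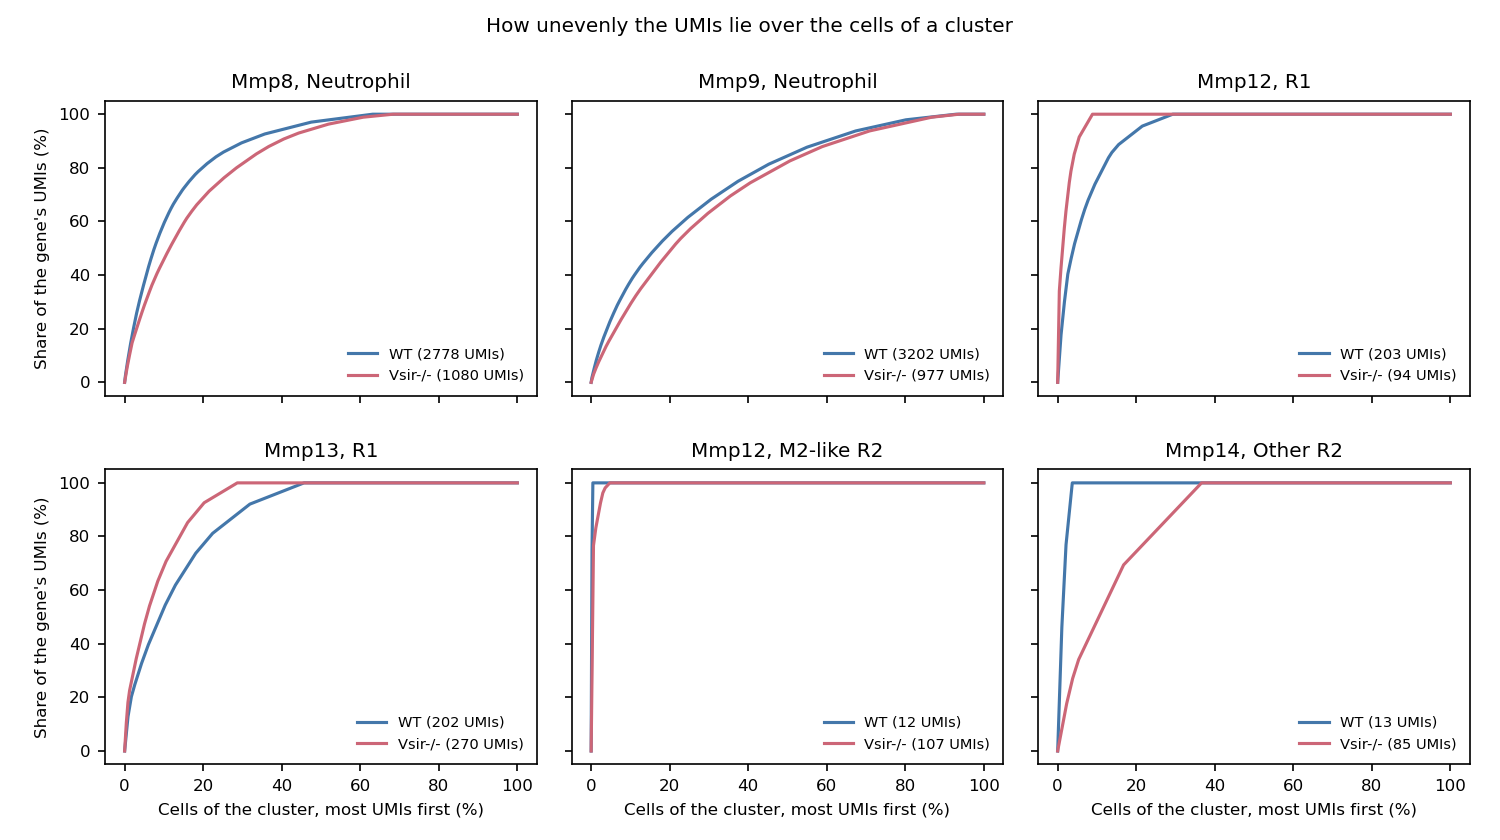
Cumulative share of a gene's UMIs (y axis, %) over the cells of a cluster ranked from most to fewest UMIs (x axis, % of cells), WT in blue and Vsir-/- in red. Mmp9 is spread over most neutrophils, whereas 1 Vsir-/- M2-like R2 cell holds 82 of the 107 Mmp12 UMIs of its cluster.

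Mmp12 and Mmp13 lie in a cluster of metalloproteinase genes on mouse chromosome 9, with 74860 bases between their RefSeq starts (GRCm38.p6; the second listed start of Mmp12), and Mmp8 lies in the same cluster. RefSeq promoter windows (250 bases before to 50 after a start) were found for 7 of the 9 members, in 8 windows, with 2 for Mmp12. The AP-1 motif TGAGTCA, searched on both strands, occurred in 2 of the 8 windows, those of Mmp13 and of the second start of Mmp12, and in 5.202% of all 32851 windows. The 100 bases before the start are shown for these promoters, because both genes were highest in R1 macrophages of the WT library and lower there in Vsir-/-, and for the neutrophil gene Mmp8 as a neighbour without the motif. All are on the plus strand, read 5′ to 3′, with the motif or its reverse complement in capitals, at chr9:7272414-7272513 (Mmp13), chr9:7347274-7347373 (Mmp12) and chr9:7558329-7558428 (Mmp8).
Mmp13: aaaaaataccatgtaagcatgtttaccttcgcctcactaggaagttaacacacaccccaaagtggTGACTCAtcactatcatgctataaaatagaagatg
Mmp12: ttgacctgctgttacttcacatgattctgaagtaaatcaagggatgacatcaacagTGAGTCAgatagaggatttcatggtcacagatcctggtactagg
Mmp8: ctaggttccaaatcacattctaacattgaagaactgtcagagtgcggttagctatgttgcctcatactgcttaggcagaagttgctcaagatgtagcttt
The motif began 35 bases before the Mmp13 start and 44 bases before the Mmp12 start. A match describes these letters only.

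In M2-like R2 macrophages the members went in both directions. Of the 9 genes, 7 had at least 20 UMIs over both libraries in this cluster, among them Timp3, which is listed at 0 in WT and has no fold. Of the other 6, 3 were at least 2-fold higher in Vsir-/- (Mmp12, Mmp14 and Timp2) and 3 at least 2-fold lower (Mmp8, Mmp9 and Mmp19), against 6.41% and 6.33% of all genes that were not at 0 throughout a library. Mmp9, Mmp12 and Mmp19 reached 20 UMIs in 1 library only, so these counts are not read as a result about the members. Moreover, 1 cell held 82 of the 107 Vsir-/- Mmp12 UMIs, and 82 of the 91 WT Mmp9 UMIs lay in cells rich in neutrophil transcripts. The Mmp19 direction was not held in thinned cells. The median log2 ratio of the 6 was 0.07 beside 0.00 for those genes. With the genes at 0 throughout a library counted as well, 8.11% of all genes were higher and 7.61% lower, and Timp3 counted as higher only through its 0 in WT. The M2-like R2 markers Arg1, Mrc1, Chil3, Fn1 and Ccr2 summed to 2019 CPM in WT and 3126 CPM in Vsir-/- cells of this cluster. Of these sums, Fn1 had 499 and 1466 CPM and Mrc1 4.10 and 46.6 CPM, and both also belong to the matrix turnover genes below. R1 markers summed to 1148 and 3886 CPM, and neutrophil markers to 4316 and 242 CPM. The part of these transcripts in the differences was not tested except where a value without them is given.

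Mmp8 stood at 80.1 CPM in WT M2-like R2 macrophages (352 UMIs in 456 cells) and 29.8 CPM in Vsir-/- (50 UMIs in 168 cells), a log2 ratio of −1.41 (−1.88 to −0.99). Mmp9 stood at 20.7 CPM (91 UMIs) and 2.39 CPM (4 UMIs), a log2 ratio of −2.95 (−5.02 to −1.71). In WT, 67 of these 456 cells had over 1% of their UMIs from S100a8 and S100a9, the calprotectin genes of neutrophils, against 0 of 168 in Vsir-/-. Without such cells, a setting added once the data had been seen, Mmp9 stood at 2.25 and 2.39 CPM (log2 ratio 0.18). This rested on 9 and 4 UMIs, under the number required for a comparison. Mmp8 stood at 73.0 and 29.8 CPM (log2 ratio −1.28) on 292 and 50 UMIs. Thus 82 of the 91 WT Mmp9 UMIs lay in the cells rich in calprotectin transcripts, and too few were left to compare the libraries. The Mmp8 difference was nearly as large without these cells. Mmp8 UMIs occurred in 31.4% of WT and 18.5% of Vsir-/- M2-like R2 macrophages (6.60% and 1.89% at 1000 UMIs per cell). Per 1000 S100a8 UMIs, Mmp8 had 36.4 UMIs in WT and 244 in Vsir-/- cells of this cluster, against 9.21 and 11.6 in neutrophils, whereas Mmp9 had 9.40 and 19.5, against 10.6 and 10.5 in neutrophils.

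Mmp19, a metalloproteinase that cleaves basement membrane proteins, had most of its WT UMIs in M2-like R2 macrophages, 97 of 122 (79.5%, 71.3 to 86.3%), a share that was 58.3% in thinned cells and 46.7% with each cluster weighted equally. The WT pDC cluster came next with 11.3 CPM on 3 UMIs, and its interval overlapped that of M2-like R2 macrophages. It stood at 22.1 CPM in WT and 5.97 CPM in Vsir-/- (10 UMIs), a log2 ratio of −1.82 (−2.99 to −0.95). A UMI was found in 14.9% and 4.76% of the cells, against 0.413% and 0% of B cells. At 1000 UMIs per cell only 7 WT and 3 Vsir-/- UMIs were left (1.71% and 1.89% of cells), and the log2 ratio was 0.26, so the direction was not held at this depth. Over the 29 sums by cluster and library, the gene whose levels were most like those of Mmp19 was F13a1 (Pearson's r of log2 of CPM + 10 = 0.862), which encodes a coagulation factor made by monocytes and macrophages.

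Mmp12 was higher in Vsir-/- M2-like R2 macrophages, opposite to R1 macrophages, and 1 cell held most of it. It stood at 2.73 CPM in WT (12 UMIs) and 63.9 CPM in Vsir-/- (107 UMIs), a log2 ratio of 4.50 (3.68 to 5.54). In Vsir-/- 1 cell held 82 of the 107 UMIs, and the remaining 25 were in the other 7 positive cells, while in WT 1 cell held 9 of 12. Without the cell with the most in each library the log2 ratio was 4.27, on 25 and 3 UMIs, and without the 5% of cells with the most UMIs of all genes it was 2.39. The Vsir-/- cell had 26520 UMIs, with 0 of C1qa and C1qb, 6 of Trem2 and 44 of Ptprc. Mmp12 UMIs occurred in 4.76% (2.08 to 9.17%) of Vsir-/- and 0.439% (0.0532 to 1.58%) of WT cells of this cluster, and in 1.14% and 0% of B cells. Mmp13, by contrast, had 17 UMIs in 4 WT cells and 0 in Vsir-/- M2-like R2 macrophages, under the number required for a comparison.

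**Figure D4:**
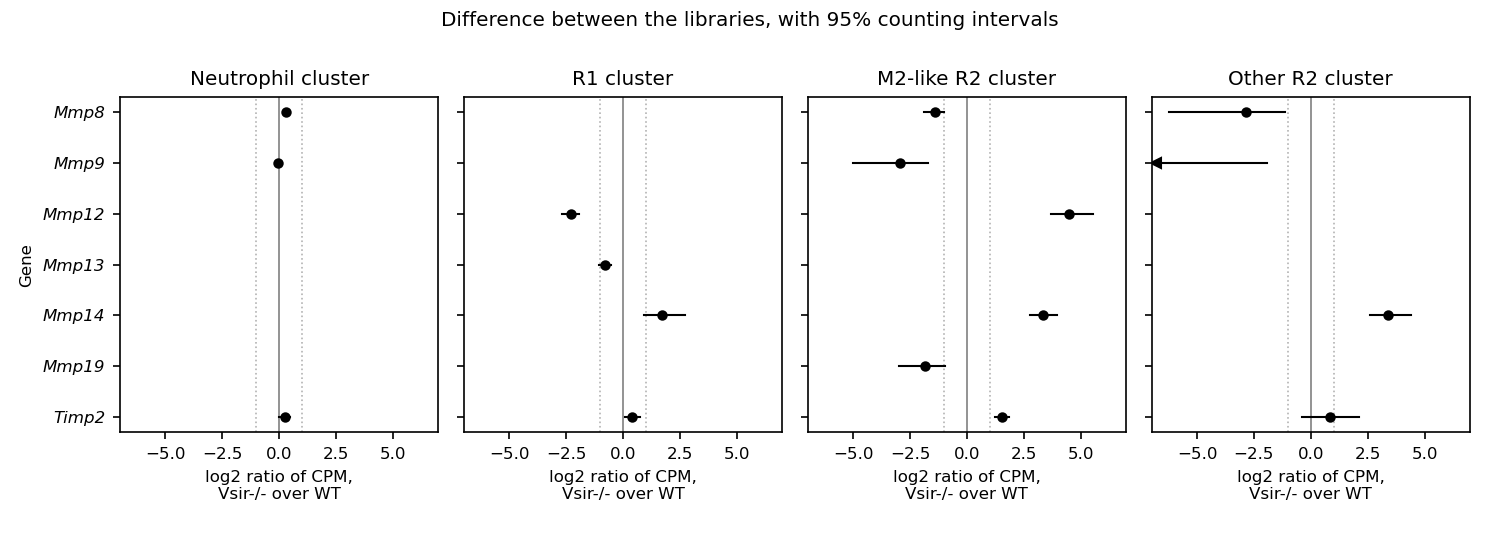
Log2 ratio of CPM, Vsir-/- over WT (x axis), for 7 genes in 4 myeloid clusters, for genes with at least 20 UMIs over both libraries. Points are ratios with 0.5 UMIs added, bars 95% counting intervals, dotted lines 2-fold differences, and the arrow marks Mmp9 in Other R2, with 0 UMIs in Vsir-/-. Mmp12 lies at −2.31 in R1 and 4.50 in M2-like R2 macrophages.

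Mmp14 is a membrane-type protease that cleaves collagen at the cell surface and activates pro-MMP2 together with Timp2. It was higher in all 3 macrophage clusters of the Vsir-/- library, and not in these alone. In Other R2 macrophages it stood at 10.1 CPM in WT (13 UMIs in 188 cells) and 110 CPM in Vsir-/- (85 UMIs in 131 cells), a log2 ratio of 3.39 (2.59 to 4.41). In M2-like R2 macrophages it stood at 7.28 CPM (32 UMIs) and 74.0 CPM (124 UMIs), a log2 ratio of 3.33 (2.77 to 3.95). In R1 macrophages it stood at 18.7 CPM (13 UMIs) and 63.7 CPM (102 UMIs), a log2 ratio of 1.72 (0.93 to 2.73). Each of these differences exceeded counting error. A UMI was found in 3.72% of WT and 36.6% of Vsir-/- Other R2 macrophages, in 3.73% and 28.6% of M2-like R2 macrophages, and in 6.03% and 20.3% of R1 macrophages, while B cells had 0.413% and 2.27%. At 1000 UMIs per cell the shares were 1.11% and 11.02%, 0.244% and 6.92%, and 3.67% and 3.30% in the same order, so the R1 difference was not held at that depth, where its log2 ratio was −0.042 on 4 and 8 UMIs.

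Kidney transcripts were also higher in the Vsir-/- macrophages, with tubule markers at 1.56 and 973 CPM in Other R2 macrophages of WT and Vsir-/-. Their part in the Mmp14 difference was not tested. The rise was not particular to macrophages. Mmp14 stood at 0.995 and 72.2 CPM in proliferating cells of WT and Vsir-/-, and at 0.449 and 40.5 in the non-EM-like CD4+ cluster. In the pDC cluster it stood at 7.56 and 20.3 CPM (log2 ratio 1.13, −0.59 to 4.55). Over neutrophils, B cells, NK cells, gamma-delta T cells, EM-like CD4+ T cells and both CD8+ clusters it ranged from 0 to 15.2 CPM in Vsir-/-. Of these, B cells had 1.72 and 15.2 CPM (6 and 8 UMIs) and neutrophils 1.61 and 7.72 CPM (4 and 6 UMIs), under the number required for a comparison. NK cells and both CD8+ clusters had 0 UMIs in Vsir-/-. Per 100 Timp3 UMIs, Mmp14 had 110 UMIs in M2-like R2, 47.0 in Other R2 and 17.2 in R1 macrophages, 17.02 in the pDC cluster, 6.17 in proliferating cells, 3.57 in neutrophils and 3.05 in the non-EM-like CD4+ cluster. With only the Vsir-/- cells at or below their cluster's median of parenchymal transcripts, a setting added once the data had been seen, the log2 ratios against WT were 3.44 in Other R2, 2.72 in M2-like R2 and 1.77 in R1 macrophages. These transcripts were mostly of tubules (52237 UMIs in Vsir-/-, against 23926 of endothelium and 3158 of mesenchyme). The part of endothelial or mesenchymal transcripts was therefore not tested by this cut. In Other R2 macrophages, 5 members had enough UMIs. Apart from Timp3, listed at 0 in WT, 1 of 4 was at least 2-fold higher (Mmp14) and 2 at least 2-fold lower (Mmp8 and Mmp9), against 5.27% and 8.75% of all genes not at 0 throughout a library (6.71% and 9.52% with such genes counted). Mmp8, Mmp9 and Mmp14 each reached 20 UMIs in 1 library only, so these counts are not read as a result about the members. Mmp8 had 29 and 2 UMIs there, with a log2 ratio of −2.83 (−6.24 to −1.15), and Mmp9 had 25 and 0 UMIs, at least 5.03-fold lower when 3 counts over the cluster are allowed for the count of 0. A single WT cell with 39392 UMIs, 2142 of them from S100a8, held 27 of the 29 Mmp8 and 16 of the 25 Mmp9 UMIs. Without cells with over 1% calprotectin UMIs, Mmp8 had 2 UMIs in each library and Mmp9 3 and 0.

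Mmp9 was also found outside myeloid cells. The EM-like CD4+ T cluster had 15.7 CPM of it in WT (44 UMIs in 23 of 489 cells) and 21.6 CPM in Vsir-/- (34 UMIs in 17 of 244 cells), a log2 ratio of 0.46 (−0.23 to 1.14), so the libraries were not separated. The UMIs lay in cells with at most 5 each, and 0 of these cells had over 1% calprotectin UMIs. Per 1000 S100a8 UMIs, Mmp9 had 160 and 540 UMIs in this cluster, and Mmp8, the other neutrophil member, had 1 and 0 UMIs in all. Shares of cells with a UMI were 4.70% and 6.97%, against 1.14% and 0% of B cells. Vsir-/- gamma-delta T cells had a like level of Mmp9, 22.6 CPM, but on 4 UMIs. Cd3e had a UMI in 19 of 23 WT and 15 of 17 Vsir-/- cells with Mmp9, but Cd4 in only 6 and 6, and Cd8a in 1 and 1. In cells without Mmp9, Cd4 was found in 20.6% (WT) and 32.2% (Vsir-/-) and Cd8a in 19.3% and 15.9%. The cells of this cluster are thus called by the authors' name only. Among genes chosen after their values were seen, Gata3, the regulator of type 2 T cells, had a UMI in 16 of 23 WT cells with Mmp9 (69.6%) and 45.3% of those without, and in 10 of 17 Vsir-/- cells (58.8%) and 44.1% of those without. Il1rl1, the receptor of IL-33, had a UMI in only 3 of 23 WT cells with Mmp9 (13.0%) and 4.29% of those without. In Vsir-/- these were 4 of 17 cells (23.5%) and 3.96%. Il17a was found in 0 of the 23 and 0 of the 17 cells with Mmp9, and in 0.858% and 9.69% of those without, so 0 in so few cells says little. All of these are counts of cells in 1 library each.

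Timp2, an inhibitor that also takes part in the activation of pro-MMP2, was highest in neutrophils among the authors' clusters in both libraries. It stood at 210 CPM in WT neutrophils (522 UMIs) and 250 CPM in Vsir-/- (194 UMIs), a log2 ratio of 0.25 (0.00 to 0.49), and thinned cells gave −0.15, so no direction is given. In R1 macrophages it stood at 141 and 189 CPM (98 and 302 UMIs; log2 ratio 0.41, 0.09 to 0.76; −0.29 in thinned cells). In M2-like R2 macrophages it stood at 34.8 and 101 CPM (153 and 170 UMIs), a log2 ratio of 1.54 (1.22 to 1.87), and this difference stayed at 1.56 in thinned cells. Markers of tubules, endothelium, mesenchyme and podocytes stood at 5.92 and 721 CPM in this cluster, and their part was not tested. The most Vsir-/- UMIs of Timp2 lay in proliferating cells (731 UMIs, 49.7 and 164 CPM, log2 ratio 1.72) and the non-EM-like CD4+ cluster (679 UMIs, 39.9 and 148 CPM, log2 ratio 1.88). Of these, 614 and 514 lay in cells without a UMI of Cd3d, Cd3e, Cd3g or Trac, against 16 of 100 and 0 of 178 in WT. These 2 ratios thus set unlike mixtures of cells side by side and are not read as differences within a cell type. NK cells had 94.5 and 105 CPM and a log2 ratio of 0.16 (−0.30 to 0.57), and the CD4+, CD8+ and gamma-delta T cell clusters of WT ranged from 34.0 CPM (non-EM-like CD8+) to 81.95 CPM (gamma-delta). In the WT order, neutrophils, R1 macrophages and NK cells did not overlap in their counting intervals, whereas NK and gamma-delta T cells did. A UMI was found in 52.3% of WT neutrophils, 55.2% of R1 macrophages and 38.6% of NK cells, against 0.826% of B cells. In Vsir-/- B cells Timp2 stood at 38.1 CPM, but 1 cell with 119 UMIs of the endothelial receptor Kdr held 11 of the 20 UMIs.

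Timp3, an inhibitor that binds to the extracellular matrix, had more UMIs than any other member in the Vsir-/- library, 13468, and its level followed kidney transcripts across clusters. The non-EM-like CD4+ cluster had 1327 CPM (6100 UMIs) and the proliferating cluster 1170 CPM (5201 UMIs), together 83.9% of the total. The 11 other clusters of at least 20 cells ranged from 67.5 CPM in M2-like R2 macrophages to 377 CPM in B cells, and the share of cells with a Timp3 UMI ranged only from 27.8% to 39.3%. The 21 markers of tubules, endothelium, mesenchyme and podocytes (Pecam1 left out) ranged from 718 to 8313 CPM over the same 13 clusters, and Timp3 had between 8.08 and 17.8 UMIs per 100 of their UMIs in each of them. In WT these markers ranged from 2.82 to 15.1 CPM. In B cells, taken here as background, 29.5% had a UMI, and at 1000 UMIs per cell the share was 8.33% (3.49 to 16.5% over the 11 clusters). A single cell of the B cluster, with 119 UMIs of Kdr and 0 of Cd79a, held 55 of its 198 Timp3 UMIs. Per 100 marker UMIs, Timp3 had 9.85 in B cells and 17.2 in R1 macrophages. The source of the Timp3 UMIs in the 11 clusters was not tested, and they are not read as expression there.

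**Figure D5:**
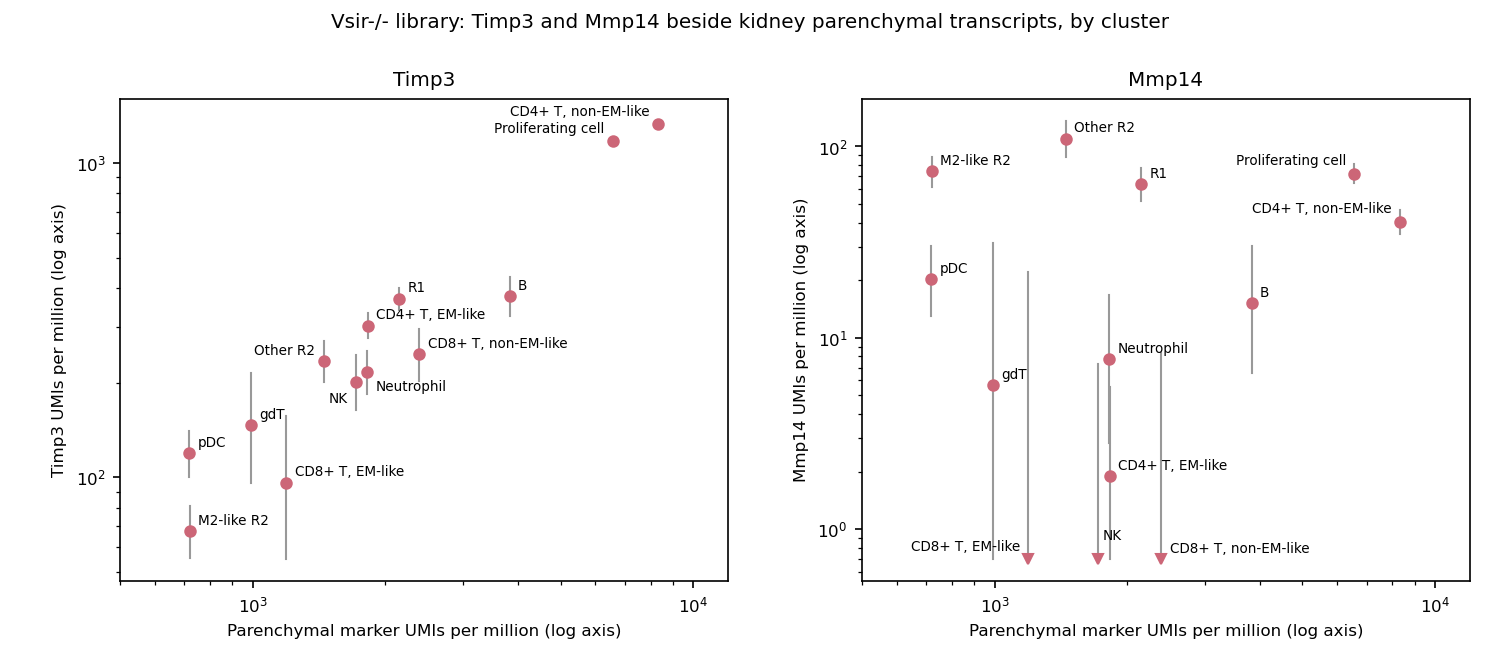
CPM of Timp3 (left) and Mmp14 (right) against CPM of parenchymal markers, by cluster of the Vsir-/- library with at least 20 cells, on log axes; bars are 95% Poisson intervals and triangles mark 0 UMIs. Timp3 has 8.08 to 17.8 UMIs per 100 marker UMIs in all 13 clusters, whereas Mmp14 stands at 63.7 to 110 CPM in the macrophage clusters and at 72.2 CPM in proliferating cells.

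The clusters with the most Timp3 were not T cells throughout. The T cell genes Cd3d, Cd3e, Cd3g and Trac were all at 0 in 240 of 349 Vsir-/- cells called non-EM-like CD4+, against 1 of 895 WT cells, and the 240 had 1442 CPM of Timp3 against 984 CPM in the other 109. In this cluster and the proliferating cluster together, 335 Vsir-/- cells had no UMI of Ptprc or of these T cell genes. Among them, 240 cells led by tubule markers had 1272 CPM of Timp3, 89.2 of Timp2, 17.0 of Mmp14 and 6.82 of Timp1. The 84 cells led by endothelial markers had 1559 CPM of Timp3, 257 of Timp2, 119 of Mmp14 and 12.04 of Timp1. The 5 cells led by mesenchymal markers had 661 CPM of Timp3, 594 of Timp2, 302 of Mmp14 and 168 of Timp1. So Mmp14 and Timp2 were higher in the cells led by endothelial or mesenchymal markers than in those led by tubule markers, whereas the Timp1 intervals of endothelium-led (7.79 to 17.8 CPM) and tubule-led cells (4.37 to 10.1 CPM) overlapped, and 1 tubule-led cell held 10 of 24 Timp1 UMIs. The split into these cells was chosen after the data were seen, and 5 cells carry little weight.

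Timp1, an inhibitor induced in stroma and macrophages by inflammation, had 165 UMIs in 69 cells of the Vsir-/- library. Of these, 82 UMIs were in proliferating cells (18.4 CPM), 34 in the pDC cluster (28.7 CPM), 22 in the non-EM-like CD4+ cluster and 19 in M2-like R2 macrophages. In the proliferating cluster 1 cell held 24 of the 82 UMIs, with 126 UMIs of Col1a1 and 157 of Col3a1. In the pDC cluster the 34 UMIs lay in 8 of 86 cells. Siglech, a defining marker of plasmacytoid dendritic cells, was found in 20 of the 86 cells and in 1 of the 8, and Cd209a in 34 and 4, so the cells of this cluster are called by the authors' name only. The levels in the pDC, proliferating and M2-like R2 clusters had overlapping counting intervals between neighbours, and Timp1 was at 0 UMIs in Vsir-/- neutrophils, NK cells and B cells.

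The genes whose levels across clusters were most like those of each member were sought over 29 sums by cluster and library (16 of WT and 13 of Vsir-/-), which share library, depth and free RNA. For Mmp8 they were Tnfaip6 (r = 0.981), Cd177 and Wfdc21, and for Mmp9 Il1f9 (r = 0.962), Stfa3 and Ly6g. For Mmp12 they were C1qb (r = 0.913), C1qc and Ms4a7, and for Mmp13 Slco2b1 (r = 0.990), Zmynd15 and Col14a1. The genes nearest to Mmp12 were others within each library, Plau, Dab2 and Zmynd15 in WT (r = 0.999 each) and Trem2 (r = 0.971), Gm5431 and C3ar1 in Vsir-/-. In WT, R1 macrophages held 203 of the 221 Mmp12 UMIs, so any gene confined to that cluster comes out near. In Vsir-/-, 1 cell held 82 of the 107 UMIs of M2-like R2 macrophages. The different nearest genes are therefore not read as a change between the libraries. Over all sums, Mmp14 was nearest to Iqsec2 (r = 0.894), Cbr3 and Adam9, the last also a membrane-bound metalloprotease. For Timp3, listed at 0 in all WT sums, likeness is given within Vsir-/- only, where Cdc42bpa (r = 0.971), Apbb2 and Ttc28 came first. Timp1, likewise within Vsir-/- only, was nearest to Hist1h3b (r = 0.825), and Timp2 over all sums to Slc40a1 (r = 0.691).

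Other genes of matrix turnover (50 genes: other metalloproteinases, adamalysins, plasminogen activators, matrix proteins, cathepsins and their receptors, of which 49 were listed) were set beside the members in the 4 myeloid clusters. In R1 macrophages 12 of 27 with enough UMIs were at least 2-fold higher in Vsir-/- and 0 lower, with a median log2 ratio of 0.69 beside −0.01 for all genes. Without genes at 0 throughout a library, 9 of 24 were higher and 0 lower, with a median of 0.52 beside −0.04. Higher medians were not particular to myeloid clusters. By the same rule the turnover medians were 1.08 in B cells, 1.55 in EM-like CD4+ T cells and 3.39 in proliferating cells. All genes had −0.03, −0.01 and 0.38 there, while the pDC cluster had −0.32 beside −0.09. Of all 8862 genes tested in R1 macrophages, 13.6% were at least 2-fold higher and 8.78% at least 2-fold lower, with the genes at 0 throughout a library counted. Of the 5 members with enough UMIs, Timp3 is listed at 0 in WT, and of the other 4, 1 was higher (Mmp14) and 1 lower (Mmp12), against 10.3% and 8.5% of all genes not at 0 throughout a library. Mannose receptor Mrc1, cathepsin Ctsl and the membrane-anchored protease Mmp25 were among the 12. So were Spp1 (5.76 and 539 CPM), Col4a1 (1.44 and 153 CPM) and Plat (0 and 175 CPM), which kidney tubules, basement membrane-forming cells and endothelium are known to express. In Vsir-/-, Ctsl stood at 179 CPM in R1 macrophages and 468 CPM in the non-EM-like CD4+ cluster, where many cells lacked T cell transcripts. Mrc1 stood at 302 and 20.7 CPM in the same order. Sparc, Col4a2, Adamts1 and Adamts5, also among the 12, stood at 470, 98.7, 45.6 and 31.2 CPM in Vsir-/- R1 macrophages. In the Vsir-/- non-EM-like CD4+ cluster they stood at 1329, 378, 191 and 343 CPM. The smallest log2 ratios in R1 macrophages were those of Cd44 (−0.76), Furin (−0.53) and Plaur (−0.33), and none was 2-fold.

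In M2-like R2 macrophages 6 of 24 turnover genes were higher (Plau, Spp1, Fn1, Sparc, Col4a1 and Mrc1) and 2 lower (Serpinb2 and Lcn2), with a median of 0.40 beside 0.01 for all genes. Without genes at 0 throughout a library, which leaves out Sparc, 5 of 23 were higher and 2 lower, with a median of 0.38 beside 0.00. Of all genes in this cluster, 8.11% were higher and 7.61% lower, or 6.41% and 6.33% without genes at 0 throughout a library. Fibronectin, Fn1, stood at 499 CPM in WT and 1466 CPM in Vsir-/- cells on 2190 and 2455 UMIs, and Plau, the urokinase-type plasminogen activator, stood at 0.91 and 13.7 CPM on 4 and 23 UMIs. Lcn2 stood at 105 and 30.4 CPM, against 4080 and 5401 CPM in neutrophils. No value without the WT cells rich in calprotectin transcripts is given for Lcn2. The part of neutrophil transcripts in its difference was not tested, and without those cells Mmp9 could not be compared. In Other R2 macrophages 7 of 20 were higher (6 of 19 without genes at 0 throughout a library) and 2, again Serpinb2 and Lcn2, lower. Of all genes there, 6.71% were higher and 9.52% lower (5.27% and 8.75% without such genes). The 2 of 20 lower are thus near the share of all genes. The median of the turnover genes was 0.37 (0.36 without such genes) beside −0.06. The largest were Spp1 (0.781 and 637 CPM), Sparc (listed at 0 in WT, 84.1 CPM in Vsir-/-), Col4a1 (3.90 and 58.2 CPM) and Col4a2 (7.03 and 40.1 CPM), genes that kidney cells express, while tubule markers stood at 1.56 and 973 CPM in this cluster, and their part was not tested. Adam9 and Adam15 had log2 ratios of 1.30 (0.49 to 2.16) and 1.27 (0.34 to 2.27).

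In neutrophils, 0 of the 3 members with enough UMIs and a fold were at least 2-fold higher or lower, against 8.54% and 9.53% of all genes not at 0 throughout a library (9.99% and 10.6% with such genes counted). Of the turnover genes, 7 of 23 were higher (6 of 22 without genes at 0 throughout a library) and 4 lower. The median was 0.16 (0.03 without such genes) beside −0.06. Of the 7, Spp1, Sparc, Plat, Col4a1 and Col4a2 are genes that kidney cells express, and tubule markers stood at 0.403 CPM in WT and 1498 CPM in Vsir-/- neutrophils, a shift whose part in these values was not tested. Mmp25, a membrane-bound metalloproteinase, stood at 29.4 and 118 CPM (73 and 92 UMIs), a log2 ratio of 2.01 (1.55 to 2.47), and thrombospondin Thbs1 at 86.3 and 242 CPM. The Mmp25 rise was not particular to neutrophils. It stood at 46.3 and 147 CPM in gamma-delta T cells (log2 ratio 1.64) and 2.14 and 23.5 CPM in EM-like CD4+ T cells (3.36). In R1 macrophages it had 0 and 21 UMIs. Spp1 reached 798 CPM in Vsir-/- neutrophils against 9.27 CPM in WT, and Sparc 91.4 CPM, listed at 0 in WT. The 4 lower genes were Lrp1, Reck, Ctss and Fn1, of which Ctss, cathepsin S, rested on 635 and 79 UMIs (log2 ratio −1.32, −1.69 to −0.99) and the others on at most 35 UMIs in WT, with intervals of Reck and Fn1 that included 0.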

How the data were processed

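Single cells of kidneys with NTN were profiled in 1 WT and 1 Vsir-/- library. The authors made UMI counts with Cell Ranger (version 3.1.0) and used Seurat (version 3.2.3, R version 4.0.3) to keep genes in at least 5 cells and cells with at least 200 UMIs and at most 10% mitochondrial UMIs, to merge the libraries, and to cluster and name the cells. The deposited matrix holds raw UMI counts, a whole number for each gene in each cell. Deposited percent values of mitochondrial UMIs served only for the alternative limit of 5%. The processing notes list mm9 as build, the annotation is not given in the sources used here, and no coordinate was taken from the count files. In the deposited table the fewest UMIs of a cell were 504 in WT and 501 in Vsir-/-, and 3 columns (genes per cell and map coordinates of cells) were not used.

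The groups were taken from the labels. UMIs were summed by cluster and library and divided by all UMIs of the same cells (CPM). Log2 ratios used 0.5 added UMIs. Genes with at least 20 UMIs over both libraries in a cluster were compared, and at least 2-fold counted as a difference in size. Poisson, Clopper-Pearson and exact conditional ratio intervals are at the 95% level, and a count of 0 allows up to 3 counts. Cells were thinned to 1000 UMIs without replacement (167 WT and 78 Vsir-/- cells were shallower). Doublets were not called or removed; alternatives without the deepest 5% of cells and without cells rich in calprotectin transcripts stand in for this. The named genes are the members, the 3 genes most like each member over sums of at least 20 cells among genes with at least 100 UMIs, the 3 turnover genes with the largest and smallest log2 ratio in each myeloid cluster, and the marker genes; other turnover genes named, the nearest genes within a library, and Trem2, Cd209a, Il17a and sex-linked transcripts, were chosen after their values were seen. The members, lists and alternatives were chosen with earlier results of these data known. The steps were tested on simulated counts. Promoter sequences are from RefSeq (GRCm38.p6). Python 3.11.15, numpy 2.4.6, scipy 1.17.1, pandas 2.3.3 and matplotlib 3.10.9 were used.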

Additional observations from a re-analysis of the deposited data

Results flagged for a closer look

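The difference in Mmp12 between the libraries had opposite signs in macrophage clusters. On the log2 scale, Vsir-/- over WT gave −2.31 in R1 and 4.50 in M2-like R2 macrophages, with counting intervals of −2.68 to −1.96 and 3.68 to 5.54. With 1 library per genotype this opposition was not tested, and 1 cell held 82 of the 107 Vsir-/- UMIs in M2-like R2 macrophages.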

How the results depend on the processing

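No paired analysis was possible because each genotype has 1 library. Of 39 main results, 133 repeats stayed within their interval or count, 48 moved beyond it and 2 turned their direction, and of 25 other results 192 stayed, 39 moved and 6 turned. The cause was not tested. With every cell thinned to 1000 UMIs, the log2 ratio turned to 0.26 for Mmp19 in M2-like R2 macrophages, −0.15 for Timp2 in neutrophils, −0.29 for Timp2 and −0.042 for Mmp14 in R1 macrophages and 0.50 for Mmp9 in Other R2 macrophages. Mmp9 had 0 Vsir-/- UMIs in Other R2 macrophages even before thinning. This 0.50 therefore comes from the 0.5 UMIs added and shows no rise. Thinning moved the log2 ratio to 0.47 for Mmp8 and −0.16 for Mmp9 in neutrophils and to −2.76 for Mmp12 and −1.44 for Mmp13 in R1 macrophages. Without cells rich in calprotectin transcripts, chosen after the data were seen, it turned to 0.63 for Mmp8 in Other R2 and 0.18 for Mmp9 in M2-like R2 macrophages. These rested on 2 UMIs in each library and on 9 and 4 UMIs, too few to compare. Without the deepest 5% of cells it turned to 1.32 for Mmp8 in Other R2 macrophages. This rested on at most 2 Vsir-/- UMIs, too few to compare. With each cell weighted equally the log2 ratio was 0.44 for Mmp8 in neutrophils, −2.83 for Mmp12 and −1.25 for Mmp13 in R1 macrophages. With Vsir-/- cells at or below their cluster's median of parenchymal transcripts, also chosen after the data were seen, it was 0.64 for Mmp8 and 0.12 for Mmp9 in neutrophils and −0.41 for Mmp13 in R1 macrophages. With at most 5% mitochondrial UMIs it was 4.42 for Mmp14 in Other R2 macrophages.

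Shares of a member's UMIs moved with depth and cluster size. In thinned cells neutrophils held 92.4% and 97.5% of Mmp8 (WT and Vsir-/-), 95.7% of Mmp9 in WT and 33.2% and 17.9% of Timp2, R1 macrophages 97.7% of Mmp12 and 92.1% of Mmp13 in WT, M2-like R2 macrophages 58.3% and 100% of Mmp19, and, in Vsir-/-, Other R2 macrophages 24.2% of Mmp14, the pDC cluster 28.6% of Timp1 and non-EM-like CD4+ T cells 51.1% of Timp3. With each cluster weighted equally the same shares were 88.4% and 97.4% for Mmp8, 24.01% and 20.6% for Timp2, 98.3% for Mmp12, 97.0% for Mmp13, 46.7% for Mmp19 in WT, 26.8% for Mmp14, 36.2% for Timp1 and 27.2% for Timp3. Among Vsir-/- cells with a Ptprc UMI they were 17.8% for Mmp14 in Other R2 macrophages, 46.6% for Timp1 in the pDC cluster, 15.9% for Timp2 in neutrophils and 25.1% for Timp3 in non-EM-like CD4+ T cells.

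Counts of members at least 2-fold apart moved with the filter. From 1 UMI on, 3 members were lower in R1, 4 higher in Other R2, and 2 higher and 1 lower in neutrophils. From 50 UMIs on, 0 members were lower in Other R2 macrophages, and turnover genes numbered 3 higher in M2-like R2 macrophages and 4 higher and 1 lower in neutrophils. The shares of all genes past 2-fold from 1 or 50 UMIs on are not given here. These counts therefore show only that the filter matters and are not read as a result about the members. Without genes listed at 0 throughout a library, also added once the data had been seen, 1 member was higher in R1, 1 in Other R2 and 0 in neutrophils. The shares of all such genes that were higher were 10.3%, 5.27% and 8.54% in the same order. Low counts limit Mmp19, Timp1 and, in WT, Mmp14, with at most 165 UMIs each, and a single library per genotype limits all comparisons.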
